A study of Homo sapiens with 6 samples.

Results

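Genes of the actin cytoskeleton and of contraction were followed in LX-2 cells, an established human hepatic stellate cell line. The genes were ACTA2, TPM1, LASP1, ABLIM3, ARHGDIA and PFN1, chosen by name, and they were 6 of 1815 genes for which a count could be read from the strand opposite to them. The cells were wild type throughout and were treated for 24 h with FEBJ, an extract made from Brucea javanica fruit that holds many compounds, with cynaroside, a single plant flavone glucoside also called luteolin-glucoside, or with DMSO, the solvent control. Each of the 3 groups held 2 libraries made from total RNA. The labels gave no doses, and they did not say if cultures were separate. The p-values therefore measure a spread between these libraries that may be technical. The fit estimates that spread with information shared over all genes tested, so it is not each gene's own spread over 2 libraries.

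Stellate cells of the liver become contractile and lay down scar matrix when they are activated, and smooth muscle actin, the product of ACTA2, is the usual mark of that state. Actin filaments are coated by tropomyosins, pulled by myosin II and anchored at focal adhesions. Profilin, the product of PFN1, feeds actin monomers to growing filament ends. Small GTPases control filament assembly and contraction, and ARHGDIA encodes the inhibitor that holds them inactive in the cytosol. LASP1 and ABLIM3 encode LIM-domain proteins that bind actin filaments.

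The promoters of ACTA2, TPM1 and LASP1 are shown because these genes changed most, and in different directions. ACTA2 is known in muscle and stellate cells as a target of serum response factor, which binds the CArG box. The 250 bases upstream of annotated starts were taken from RefSeq on GRCh38.p14 for all 6 genes and searched on both strands for the CArG box, allowing at most 1 departure in its A/T core. The window before the downstream start of ACTA2 held 2 such boxes, CCCTATATGG at -121 to -112 and CCTTGTTTGG at -71 to -62 from the start, printed in capitals. The windows of the other 5 genes and the window before the upstream start of ACTA2 held none. A match with 1 departure was found in 7.04% of the 35116 promoters in the table, and a match with none in 1.16%. A match describes the letters in a window and does not show that a factor binds there. The windows lie at chr10:88952774-88953023 on the minus strand, at chr15:63048239-63048488 on the plus strand and at chr17:38869808-38870057 on the plus strand.
ACTA2: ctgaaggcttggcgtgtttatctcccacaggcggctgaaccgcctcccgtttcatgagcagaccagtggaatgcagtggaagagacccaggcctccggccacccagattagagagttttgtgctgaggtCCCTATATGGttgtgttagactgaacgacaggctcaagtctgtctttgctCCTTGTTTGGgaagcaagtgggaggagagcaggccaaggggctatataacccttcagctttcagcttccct
TPM1: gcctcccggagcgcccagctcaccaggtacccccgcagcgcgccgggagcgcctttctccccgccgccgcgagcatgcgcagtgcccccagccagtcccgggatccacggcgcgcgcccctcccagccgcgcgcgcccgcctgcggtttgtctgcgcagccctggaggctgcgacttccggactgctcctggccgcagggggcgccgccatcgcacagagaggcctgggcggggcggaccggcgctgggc
LASP1: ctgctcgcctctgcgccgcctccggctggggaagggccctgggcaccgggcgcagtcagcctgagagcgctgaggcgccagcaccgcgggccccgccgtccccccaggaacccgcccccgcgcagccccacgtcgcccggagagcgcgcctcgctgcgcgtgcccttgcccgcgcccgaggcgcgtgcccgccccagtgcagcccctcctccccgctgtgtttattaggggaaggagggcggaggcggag

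Each gene was read from rows on the other strand, since those rows held far more counts than the gene's own row. ACTA2 was read from ACTA2-AS1, TPM1 from TPM1-AS and AC079328.2 together, LASP1 from AC006441.3, ABLIM3 from AC012613.2 and ARHGDIA from AC145207.2, all annotated as antisense RNAs. PFN1 was read from the row of ENO3, the muscle enolase, which lies on the other strand from it. In GENCODE 29 the rows for LASP1 and ARHGDIA and the row AC079328.2 lay opposite their gene over 100% of their exon length. The overlap was 61.7% of TPM1-AS and 16.2% of ACTA2-AS1, and only 2.6% of ENO3, or 111 bp, and 1.9% of the ABLIM3 row, or 88 bp. Counts of antisense or ENO3 RNA itself cannot be told apart from counts of the gene opposite, since the strand setting of the counting step was not given in the sources used here. The parts counted also differ between genes, so levels are compared only within a gene.

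Gene rows held 1599000 to 4709317 counts per library, of which the rows read here held 40.5 to 46.3%. Levels are given in CPM, counts per 1000000 counts of the opposite-strand reading after TMM scaling. Log2 CPM correlated at 0.988 to 0.992 within groups and at 0.745 to 0.948 between groups, over 1139 genes with a mean of at least 50 CPM. VIM, an intermediate filament of mesenchymal cells, held 66830 to 195788 counts in this reading, and THY1, a fibroblast surface marker, held 564 to 1966. COL1A1, for the main fibrillar collagen of scar, had no value in the reading. Its own row held 6 and 10 counts after FEBJ, 58 and 78 after cynaroside and 783 and 1276 in DMSO. In the same order, the own row of VIM held 120 and 155, 155 and 319, and 1075 and 1455 counts. That of PDGFRB held 0 and 0, 0 and 2, and 18 and 28. That of THY1 held 10 and 2, 4 and 8, and 5 and 17. For VIM the fall was far larger in the own row than in the reading. KRT7, a bile duct keratin, held 1051 and 1243 counts of the reading after FEBJ, 62 and 110 after cynaroside and 164 and 222 in DMSO. The part of these differences in the results below was not tested. The own rows of the stellate markers DES and LRAT had 0 counts in all libraries. So did the own rows of the hepatocyte markers ALB and TTR, the 3 endothelial markers and the epithelial markers EPCAM and KRT19. The own row of KRT7 held only 1 to 15 counts, so a 0 in an own row does not show that a gene was silent. The row of SERPINA1, another hepatocyte marker, held 27 and 37 counts after FEBJ, 0 and 0 after cynaroside and 2 and 1 in DMSO, and its part in the results was not tested. A second scaling, with factors from all deposited rows, moved the log2 fold changes of the reading by a median of 0.22 for FEBJ against DMSO. The median move was 0.46 for cynaroside against DMSO and -0.24 for FEBJ against cynaroside. The share of called genes that were higher then changed to 60.2, 88.0 and 41.3%, against 51.5, 48.5 and 51.1% within the reading. For the fold changes and list counts printed in the text, values with the factors of all rows are given where they change a call or a direction. Fold changes that are not printed, also of genes named below, changed a call or a direction in some cases too. In a culture, fewer cells of a state and less RNA per cell cannot be told apart.

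The comparison of FEBJ with DMSO asked what the extract changed in these cells. TPM1 and LASP1, a filament coat protein and a filament-binding adaptor, were lower after FEBJ by more than the spread between libraries, while ACTA2 and PFN1 did not pass the test. In a quasi-likelihood test (edgeR, adjusted over 1548 genes by Benjamini-Hochberg), 4 of the 6 genes fell, 0 rose, and 34.1 and 36.2% of all genes tested were called lower and higher in this comparison. All genes together were called in 70.3% of cases, so a call alone sets a gene little apart. The median log2 fold change was -0.39 over the 6 genes and 0.05 over all 1548. With the factors of all rows 2 of the 6 rose and 2 fell, where 42.4 and 28.1% of all genes were called higher and lower. The medians were then -0.18 and 0.27.

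TPM1, which encodes tropomyosin 1, stood at 1951 and 1913 CPM in the FEBJ libraries and at 5865 and 6053 CPM in the DMSO libraries. Both FEBJ libraries lay far below both DMSO libraries. The log2 fold change was -1.63 ± 0.04 (standard error from the edgeR fit of all 6 libraries, n = 2 each, adjusted p = 3.39e-261 by edgeR). This was a level of 0.324 of that in DMSO. LASP1 stood at 1475 and 1568 CPM after FEBJ and at 3147 and 3050 CPM in DMSO, again with no overlap. Its log2 fold change was -1.02 ± 0.05 (adjusted p = 2.71e-84). ABLIM3 stood at 102 and 109 CPM after FEBJ and at 152 and 169 CPM in DMSO. It fell by 0.61 on the log2 scale (± 0.19, adjusted p = 0.00255), but with the factors of all rows the fold change was -0.39 (adjusted p = 0.0648), and without DMSO 2 it was -0.53 (adjusted p = 0.0544).

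ARHGDIA, the GTPase inhibitor, stood at 12090 and 11940 CPM after FEBJ and at 13920 and 13280 CPM in DMSO. It fell by 0.18 on the log2 scale (± 0.03, adjusted p = 1.01e-10), a call that ended at 0.04 (adjusted p = 0.494) with the factors of all rows. PFN1 stood at 16160 and 15690 CPM after FEBJ and at 15680 and 16210 CPM in DMSO, and these ranges overlapped. Its log2 fold change was -0.00 (95% interval -0.05 to 0.05, adjusted p = 0.937), or 0.21 (adjusted p = 4.65e-05) with the factors of all rows. ACTA2 stood at 286 and 275 CPM after FEBJ and at 259 and 248 CPM in DMSO. The FEBJ libraries were the higher ones, but the log2 fold change of 0.14 (95% interval -0.12 to 0.41, adjusted p = 0.330) did not pass the test. It was 0.36 (adjusted p = 0.0151) with the factors of all rows.

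**Figure D1:**
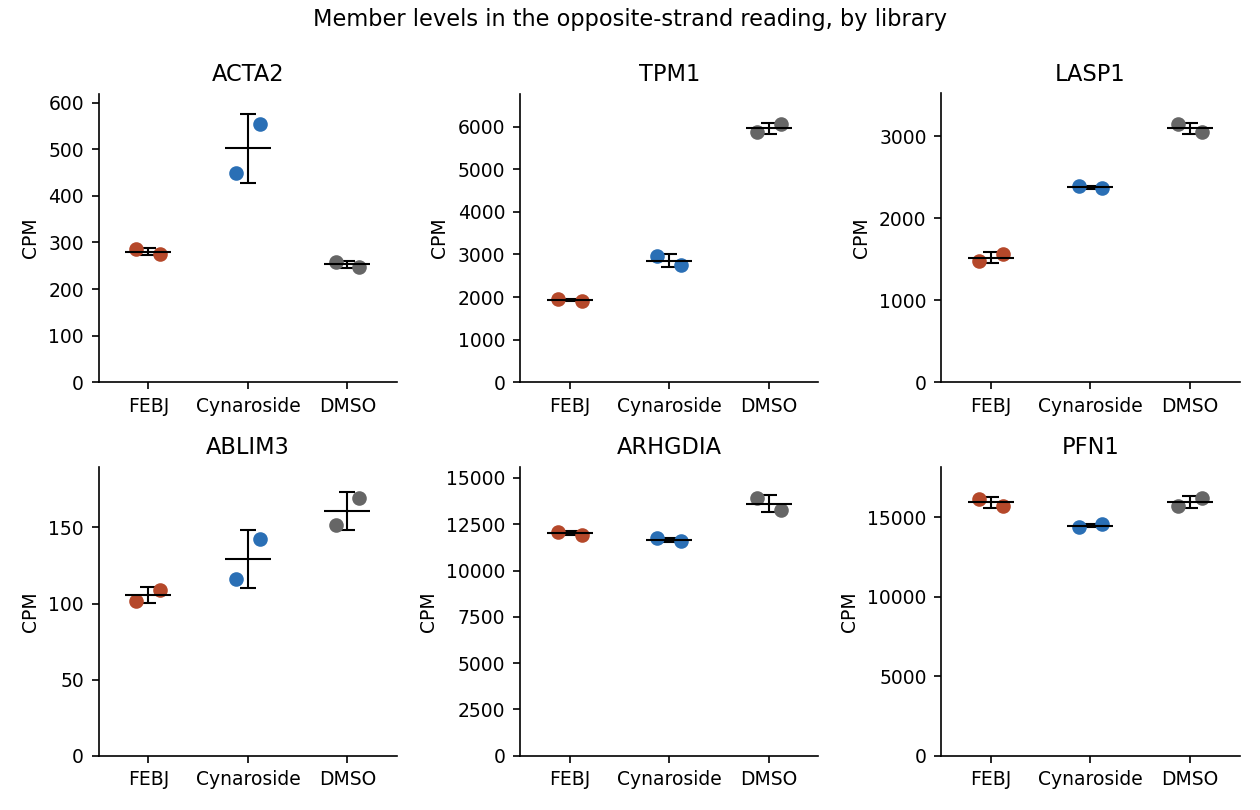
CPM of the 6 genes in the opposite-strand reading, by library, on linear axes from 0; points are libraries, and the bars are the mean and SD of 2 libraries per group. TPM1 and LASP1 are lowest in the FEBJ libraries and highest in the DMSO libraries, and ACTA2 is highest in the cynaroside libraries, at 450 and 553 CPM.

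The comparison of cynaroside with DMSO asked what the purified flavone glucoside changed. ACTA2 rose to 2.01 times its level in DMSO, and TPM1 fell to 0.477 of it. In all, 1 of the 6 genes rose and 4 fell, where 20.2 and 21.5% of the 1548 genes tested were called higher and lower and 41.7% were called in either direction. The median log2 fold change was -0.26 over the 6 genes and -0.01 over all genes. With the factors of all rows 3 of the 6 rose and 1 fell, where 51.0 and 6.98% of all genes were called higher and lower, and the medians were 0.20 and 0.45.

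ACTA2 stood at 450 and 553 CPM in the cynaroside libraries and at 259 and 248 CPM in the DMSO libraries. For ACTA2 the cynaroside libraries differed more from each other than the libraries of FEBJ or DMSO, yet both lay above both DMSO libraries. The log2 fold change was 1.00 ± 0.13 (adjusted p = 1.09e-13 by edgeR), and it was 0.83 to 1.14 when any 1 library was left out. The row of FAS, the gene of a death receptor, also lies opposite ACTA2, over 380 bp of the 5′ untranslated region, and was not part of the sum. It held 222 and 571 counts after cynaroside and 127 and 142 counts in DMSO. With protein-coding rows such as FAS added, the fold change of ACTA2 was 1.18.

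TPM1 stood at 2958 and 2749 CPM after cynaroside and at 5865 and 6053 CPM in DMSO. Its log2 fold change was -1.07 ± 0.04 (adjusted p = 5.32e-125), or -0.61 (adjusted p = 1.75e-14) with the factors of all rows, so the fall was called under both scalings. Read from AC079328.2 alone, the larger of its rows, it was -0.68. LASP1 stood at 2395 and 2368 CPM after cynaroside and at 3147 and 3050 CPM in DMSO, and fell by 0.38 on the log2 scale (± 0.05, adjusted p = 5.46e-13). That call ended with the factors of all rows, at 0.08 (adjusted p = 0.338). ABLIM3 was not called, at 116 and 143 CPM after cynaroside and 152 and 169 CPM in DMSO (log2 fold change -0.29, 95% interval -0.66 to 0.08, adjusted p = 0.215), and its value with the factors of all rows was 0.17 (adjusted p = 0.459).

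ARHGDIA and PFN1, whose rows held the most counts of the 6, moved little. ARHGDIA stood at 11740 and 11580 CPM after cynaroside and at 13920 and 13280 CPM in DMSO, and fell by 0.22 on the log2 scale (± 0.03, adjusted p = 3.61e-15). PFN1 stood at 14410 and 14540 CPM after cynaroside and at 15680 and 16210 CPM in DMSO, and fell by 0.14 (± 0.02, adjusted p = 2.00e-07). With the factors of all rows both directions turned round, to 0.23 for ARHGDIA (adjusted p = 3.29e-05) and 0.31 for PFN1 (adjusted p = 2.90e-08). Directions for ARHGDIA and PFN1 therefore rest on the scaling.

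**Figure D2:**
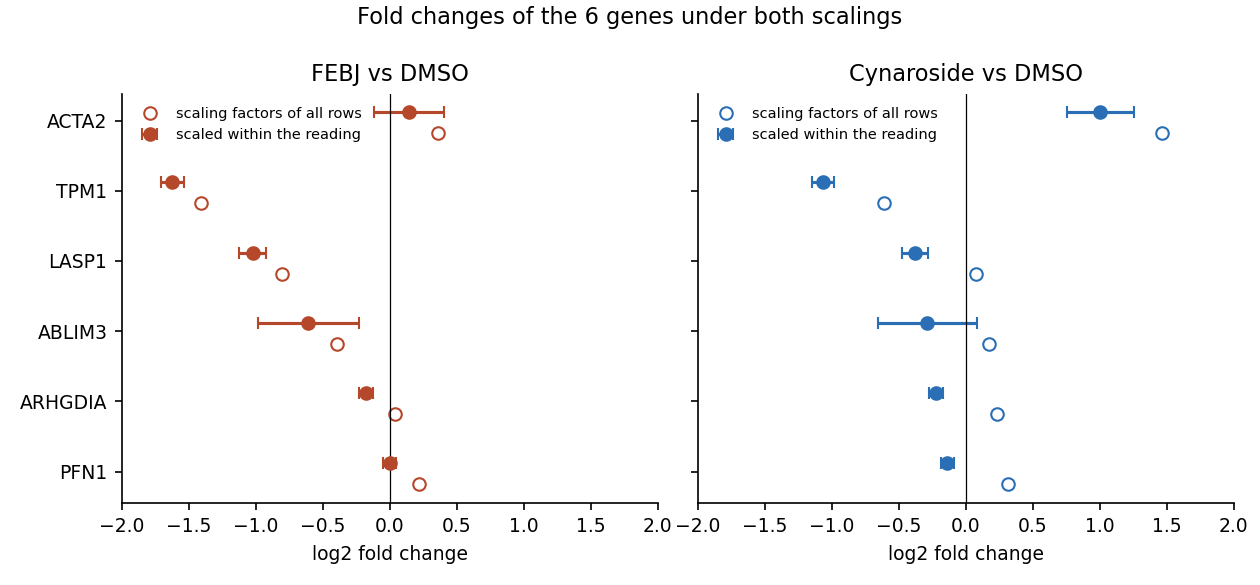
Log2 fold changes of the 6 genes after FEBJ (left) and after cynaroside (right) against DMSO; filled points are scaled within the reading, with 95% intervals from edgeR, and open points use the scaling factors of all deposited rows. TPM1 stays below 0 in both panels under both scalings, at -1.63 and -1.41 after FEBJ and at -1.07 and -0.61 after cynaroside, while ARHGDIA and PFN1 sit close to 0. After cynaroside LASP1, ABLIM3, ARHGDIA and PFN1 lie below 0 within the reading and above 0 with the factors of all rows.

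FEBJ and cynaroside were also compared directly, which tests whether the treatments differ. ACTA2, TPM1 and LASP1 were all lower after FEBJ than after cynaroside, and PFN1 was slightly higher, so 3 of the 6 genes were lower and 1 was higher. Of the 1548 genes tested 34.0% were called lower, 35.6% higher and 69.6% in either direction. With the factors of all rows 5 of the 6 were lower and 0 higher, where 40.5 and 28.5% of all genes were called lower and higher. Within the reading the log2 fold change was -0.86 ± 0.13 for ACTA2 (adjusted p = 4.79e-11 by edgeR). It was -0.56 ± 0.04 for TPM1 (adjusted p = 2.49e-34) and -0.64 ± 0.05 for LASP1 (adjusted p = 5.62e-34). These 3 differences kept their direction and call with the factors of all rows, at -1.10, -0.80 and -0.88. PFN1 was higher after FEBJ by 0.14 on the log2 scale (± 0.02, adjusted p = 1.04e-07), but the value was -0.10 (adjusted p = 0.0565) with the factors of all rows. ARHGDIA was not called, with a difference of 0.04 (95% interval -0.01 to 0.10, adjusted p = 0.137), or -0.19 (adjusted p = 0.000331) with those factors. ABLIM3 was not called either, at -0.32 (95% interval -0.70 to 0.06, adjusted p = 0.134), and was called at -0.57 (adjusted p = 0.00884) with those factors and at -0.48 (adjusted p = 0.0417) without cynaroside 1.

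Ratios between genes of the same library do not depend on the scaling. Per 100 TPM1 counts, ACTA2 had 14.6 and 14.4 counts in the FEBJ libraries, 15.2 and 20.1 in the cynaroside libraries and 4.41 and 4.1 in the DMSO libraries. All 4 treated libraries lay above both DMSO libraries. Per 100 PFN1 counts, TPM1 had 12.1 and 12.2 counts after FEBJ, 20.5 and 18.9 after cynaroside and 37.4 and 37.3 in DMSO. LASP1 had 9.13 and 10 counts per 100 PFN1 counts after FEBJ, 16.6 and 16.3 after cynaroside and 20.1 and 18.8 in DMSO. ACTA2 had 1.77 and 1.75 after FEBJ, 3.12 and 3.81 after cynaroside and 1.65 and 1.53 in DMSO. A ratio shows unequal change and not which gene stayed level.

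The rows opposite TPM1 cover different parts of the gene, which makes its transcripts from several starts and with several ends. TPM1-AS lies 3402 to 6288 bp from the 5′ end of the gene, and the TPM1 promoter printed above lies within it. That row overlaps the first exon of 7 of 19 annotated coding transcripts and the last exon of 1. Of its 2070 bp of overlap, 1693 bp are annotated only as 3′ untranslated, 245 bp only as 5′ untranslated and 132 bp as coding. AC079328.2 lies 27393 to 29279 bp from that end, over the 3′ untranslated region of 5 of the 19. TPM1-AS held 541 and 698 counts after FEBJ, 531 and 1426 after cynaroside and 2533 and 4111 in DMSO. AC079328.2 held 1610 and 2266 counts after FEBJ, 1612 and 4432 after cynaroside and 3721 and 5325 in DMSO. TPM1-AS, the row nearer the 5′ end, therefore took 25.2 and 23.5% of the counts read for TPM1 after FEBJ. The share was 24.8 and 24.3% after cynaroside and 40.5 and 43.6% in DMSO, and it does not tell which transcript starts were used. The Wilson 95% intervals, which cover counting error only, reached at most 27.0% in the treated libraries and began at 39.3% or more in DMSO. With 2 libraries against 2 the exact two-sided permutation test gave p = 0.333 for each treatment against DMSO, which is the smallest p it allows, and p = 1 between FEBJ and cynaroside. Among all deposited rows, TPM1-AS changed by -2.20 ± 0.09 after FEBJ and by -1.39 ± 0.09 after cynaroside on the log2 scale, and AC079328.2 by -1.02 ± 0.07 and -0.23 ± 0.07. All 4 were called (adjusted p at most 0.00661 by edgeR).

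**Figure D3:**
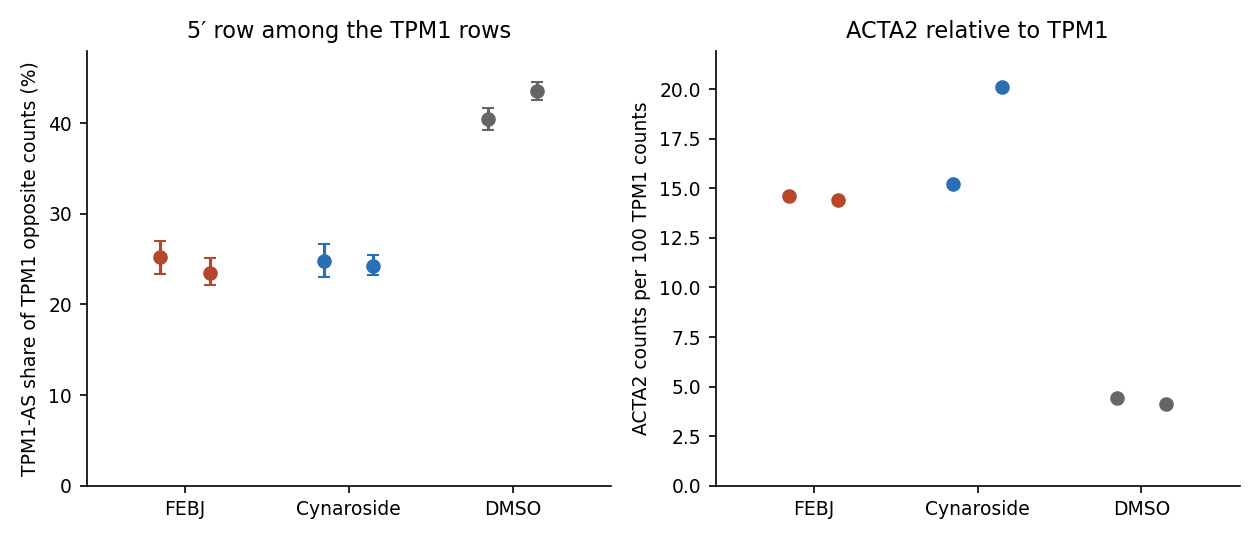
Left, the share of the counts read for TPM1 that came from TPM1-AS, the row nearer the 5′ end, in percent, with Wilson 95% intervals. Right, ACTA2 counts per 100 TPM1 counts. Each point is a library. The FEBJ and cynaroside libraries sit at 23.5 to 25.2% on the left, below the DMSO libraries at 40.5 and 43.6%, and above the DMSO libraries on the right.

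The rows that carry the genes' own identifiers gave another picture. They held 0.235 to 5.36% of the opposite count in the FEBJ libraries, 0 to 2.63% in the cynaroside libraries and 2.59 to 16.7% in the DMSO libraries. Among all 12012 deposited rows tested, 5 of the 6 own rows fell after FEBJ and 5 fell after cynaroside, where 24.8 and 21.1% of all rows were called lower, 26.0 and 24.3% higher, and 50.8 and 45.4% in either direction. The own row of TPM1 held 41 and 48 counts after FEBJ, 22 and 80 after cynaroside and 250 and 362 in DMSO. Its log2 fold change was -2.57 ± 0.26 after FEBJ and -2.27 ± 0.25 after cynaroside, the same direction as in the opposite-strand reading. Since 5 of the 6 own rows fell after each treatment, this direction sets TPM1 little apart. The own row of PFN1 held 218 and 253 counts after FEBJ, 90 and 281 after cynaroside and 495 and 654 in DMSO. It fell by 1.08 on the log2 scale after FEBJ (± 0.15) and fell by 1.31 after cynaroside (± 0.16), whereas ENO3, the row opposite to it, rose by 0.21 ± 0.05 and 0.31 ± 0.05 on the same scale. The own row of ACTA2 held 2 and 1 counts after FEBJ, 0 and 7 after cynaroside and 9 and 28 in DMSO. These are few beside the 276 to 1179 counts of ACTA2-AS1. The own row of ACTA2 was called lower after FEBJ (-3.21 ± 1.26, adjusted p = 0.0359 by edgeR). It was not called after cynaroside (-2.13 ± 1.15, adjusted p = 0.132). The opposite-strand reading of ACTA2 did not fall after either treatment. Between FEBJ and cynaroside 0 of the 6 own rows passed the test by edgeR, 0 by DESeq2, and 0 had an unadjusted p under 0.05, while 41.9% of all rows were called, 21.5% higher and 20.4% lower.

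Other genes of the actin cytoskeleton were taken from lists of 219 symbols, older names included, that cover filament proteins, motors, nucleators, cross-linkers, small GTPases and focal adhesions. A count could be read and tested for 38 of them. After FEBJ 22 of the 38 fell and 5 rose, where 34.1 and 36.2% of all genes were called lower and higher, and their median log2 fold change was -0.38 against 0.05 for all genes. With the factors of all rows 18 fell and 6 rose, where 28.1 and 42.4% of all genes were called lower and higher. After cynaroside 10 fell and 8 rose, near the 21.5 and 20.2% of all genes called lower and higher, with a median of -0.08 against -0.01. With the factors of all rows this split turned to 5 fallen and 19 risen, where 6.98 and 51.0% of all genes were called lower and higher. The own rows of the listed genes differed from this reading. Of 180 tested among all deposited rows, 103 fell and 16 rose after FEBJ, and 103 fell and 10 rose after cynaroside. The medians were -1.75 and -1.66, against -0.06 and 0.02 over all deposited rows. Of all deposited rows, 24.8 and 26.0% were called lower and higher after FEBJ, and 21.1 and 24.3% after cynaroside. The share over own rows of protein-coding genes alone was not taken, so a fall particular to the listed genes was not tested. The single lists below hold 1 to 8 tested genes, and their counts are to be read beside the shares over all genes of the reading. ACTC1, the cardiac actin, was the only actin isoform besides ACTA2 that could be tested. It stood at 24.5 and 32.9 CPM after FEBJ, 2.76 and 8.92 CPM after cynaroside and 16.9 and 14.1 CPM in DMSO, and only the difference between FEBJ and cynaroside was called (2.06 ± 0.61, adjusted p = 0.00138).

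Of 4 thin filament genes 3 fell after FEBJ, and 1 rose and 1 fell after cynaroside. Scaled by all rows, 3 rose and 0 fell after cynaroside, while the count after FEBJ was again 3. TMOD3, which caps the pointed ends of filaments, stood at 539 and 478 CPM after FEBJ and at 1624 and 1516 CPM in DMSO (log2 fold change -1.63 ± 0.07). TPM4, another tropomyosin, stood at 2032 and 2022 CPM after FEBJ, 4279 and 4077 CPM after cynaroside and 3845 and 3620 CPM in DMSO. It fell after FEBJ (-0.88 ± 0.04) and rose after cynaroside (0.16 ± 0.04), where TPM1 fell after both. SMTN, smoothelin, which marks contractile smooth muscle, fell after cynaroside (-0.56 ± 0.11), at 355 and 364 CPM against 599 and 473 CPM in DMSO, a call that ended at -0.10 (adjusted p = 0.473) with the factors of all rows.

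Of 6 myosin genes 4 fell and 1 rose after FEBJ, and 1 fell and 2 rose after cynaroside. Under the factors of all rows 0 fell and 4 rose after cynaroside. MYL12A, a regulatory light chain of nonmuscle myosin, stood at 3025 and 3343 CPM after FEBJ, 6550 and 6571 CPM after cynaroside and 4077 and 4152 CPM in DMSO. It rose after cynaroside (0.67 ± 0.04) and fell after FEBJ (-0.37 ± 0.04), where ACTA2 was not called lower. MYLK, the kinase that switches the light chain on, stood at 676 and 591 CPM after FEBJ and at 1499 and 1366 CPM in DMSO (-1.18 ± 0.07). Its smaller fall after cynaroside (-0.28 ± 0.07) turned to 0.17 with the factors of all rows. MYO9B, a single-headed myosin, was at 187 and 176 CPM after FEBJ, against 815 and 833 CPM in DMSO (-2.19 ± 0.10). MYH14, a nonmuscle myosin heavy chain, rose after FEBJ (0.53 ± 0.22).

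Among 6 tested cross-linkers and membrane linkers, 3 fell and 1 rose after FEBJ, and 3 fell and 2 rose after cynaroside, or 2 fell and 3 rose with the factors of all rows. FLNC, a filamin that ties filaments into networks, had the largest fall of the 38 genes after FEBJ, at 406 and 507 CPM against 4669 and 4658 CPM in DMSO (-3.34 ± 0.05). It stood at 3582 and 3488 CPM after cynaroside (-0.40 ± 0.05), a fall that was not called with the factors of all rows (0.05, adjusted p = 0.508). SPTAN1, the alpha chain of nonerythroid spectrin, rose after FEBJ, at 1384 and 1453 CPM against 655 and 594 CPM in DMSO (1.19 ± 0.08). ADD3, an adducin that joins spectrin to actin, stood at 84.3 and 86.5 CPM after FEBJ, 236 and 194 CPM after cynaroside and 180 and 140 CPM in DMSO. It fell after FEBJ (-0.89 ± 0.19) and rose after cynaroside (0.42 ± 0.18).

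Of 8 focal adhesion genes 5 fell and 1 rose after FEBJ, and 2 fell after cynaroside. Scaled by all rows, 4 fell and 2 rose after FEBJ, with ILK, a kinase of focal adhesions, at -0.17 (adjusted p = 0.338) in place of -0.38 ± 0.15, and 1 fell and 3 rose after cynaroside. ILK was named after its values were seen. PXN, paxillin, an adaptor of focal adhesions, stood at 3029 and 3043 CPM after FEBJ, 8622 and 8196 CPM after cynaroside and 10190 and 10180 CPM in DMSO. The log2 fold change was -1.75 ± 0.03 after FEBJ and -0.28 ± 0.03 after cynaroside, and the second turned to 0.18 (adjusted p = 0.00299) with the factors of all rows. ITGAV, an integrin alpha chain, fell after FEBJ (-2.48 ± 0.26), at 27.2 and 21.9 CPM against 103 and 165 CPM in DMSO. TES, the adhesion protein testin, rose after FEBJ (1.32 ± 0.54) at low levels. NEDD9, a scaffold of adhesion signalling, fell after cynaroside (-1.38 ± 0.37).

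Of 6 genes of small GTPases and their regulators 2 rose and 3 fell after FEBJ, and 3 rose and 1 fell after cynaroside. Scaled by all rows, 2 rose and 2 fell after FEBJ, and 4 rose and 1 fell after cynaroside. CDC42, the GTPase that drives filopodia, stood at 475 and 540 CPM after FEBJ, 196 and 200 CPM after cynaroside and 141 and 158 CPM in DMSO (1.76 ± 0.14 after FEBJ). CDC42BPA and CDC42BPB, kinases that act downstream of it, fell after FEBJ (-1.41 ± 0.19 and -1.08 ± 0.12), and CDC42BPB rose after cynaroside (0.42 ± 0.11). ARHGAP5, a GTPase-activating protein, rose after FEBJ (0.66 ± 0.05) and after cynaroside (0.26 ± 0.05). CDC42EP3, an effector of CDC42, fell after cynaroside, at 439 and 416 CPM against 991 and 886 CPM in DMSO (-1.14 ± 0.09). Its small fall after FEBJ (-0.21 ± 0.09) was not called with the factors of all rows (0.01, adjusted p = 0.948).

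Among 4 nucleation and elongation genes 2 fell after FEBJ, FMNL1, a formin (-0.67 ± 0.09), and WASF3, an activator of branched actin assembly (-0.29 ± 0.08). FMNL1 also fell after cynaroside (-0.27 ± 0.09), a call that ended at 0.19 (adjusted p = 0.0842) with the factors of all rows, as that of WASF3 after FEBJ did at -0.08 (adjusted p = 0.449), and 2 genes of this list then rose after cynaroside. GSN, gelsolin, which severs filaments, was at 108 and 132 CPM after FEBJ and at 175 and 194 CPM in DMSO (-0.61 ± 0.18). MYOCD encodes myocardin, the cofactor of serum response factor that activates smooth muscle genes. It stood at 43.5 and 62.6 CPM after FEBJ, 11 and 28.6 CPM after cynaroside and 95.7 and 94.9 CPM in DMSO. It fell after cynaroside (-2.07 ± 0.31), where ACTA2 rose, and after FEBJ (-0.83 ± 0.28), though the second was not called with the factors of all rows (-0.61, adjusted p = 0.0594).

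**Figure D4:**
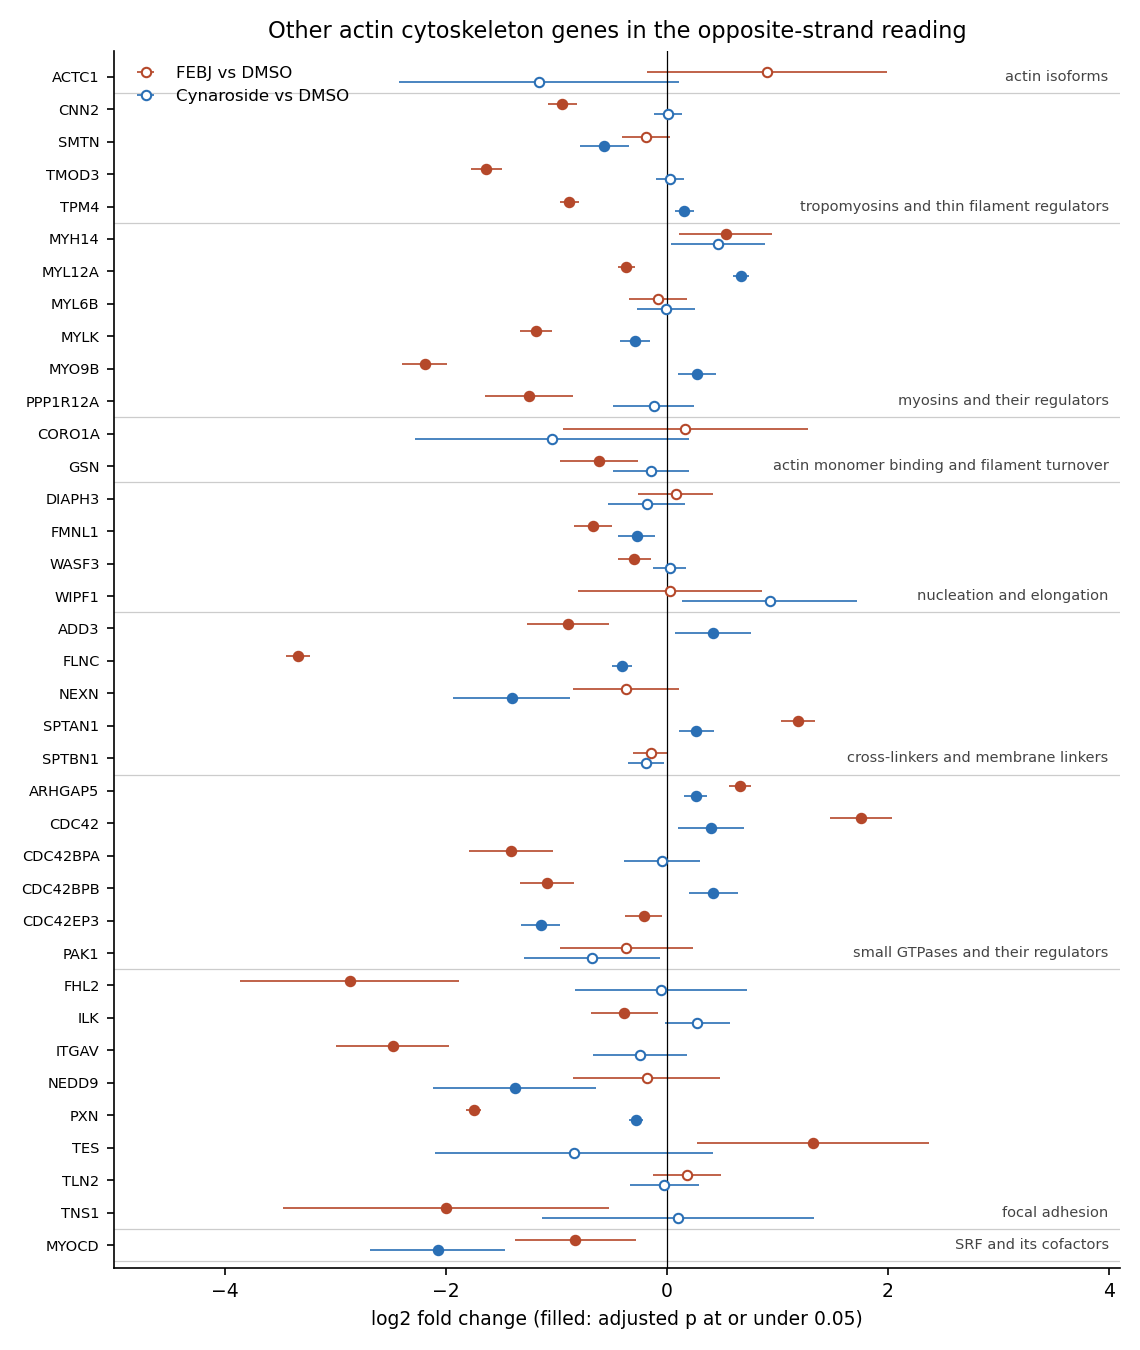
Log2 fold changes against DMSO, with 95% intervals from edgeR, of the other actin cytoskeleton genes reported, grouped by list; filled points passed an adjusted p of 0.05. FLNC has the lowest value after FEBJ, at -3.34, CDC42 the highest, at 1.76, and MYOCD the lowest after cynaroside, at -2.07; the cynaroside falls of FLNC, PXN, MYLK, FMNL1 and SMTN were not called as falls with the factors of all rows.

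Genes whose profile over the 6 libraries lay nearest to each of the 6 were found among 1138 candidates by the root mean square difference of centred log2 CPM. For ACTA2 these were CERS6 and ITFG1, with differences of 0.162 and 0.167. For TPM1 they were GRAMD2B and RETREG1 (0.0970 and 0.129). VIM (0.0542) and ADAMTSL4 (0.0555) lay nearest to LASP1, so the LASP1 profile followed that of vimentin closely, with VIM at 61830 CPM after FEBJ, 92070 CPM after cynaroside and 116500 CPM in DMSO on average. MDM2 and CAST (0.0970 and 0.0972) lay nearest to ABLIM3, MANEAL and RBM3 (0.0425 and 0.0544) to ARHGDIA, and PYGL and SPIRE1 (0.0320 and 0.0331) to PFN1. ACTA2 had the least close neighbours of the 6.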

How the data were processed

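The authors deposited raw counts per Ensembl gene row, 1 table per library with 62754 gene rows. Per the submitters' processing notes, CASAVA 1.7, HISAT2, HTSeq 0.12.4 and DESeq2 1.38.0 were used with hg19. The kit, the strand setting and the annotation release were not given in the sources used here. HTSeq summary rows, of which reads outside every feature made up 87.4 to 88.3% of all counts, were left out. Exon overlaps came from GENCODE 29 on GRCh38, which held 58261 of the rows. It was not reconciled with hg19; overlaps, distances within TPM1 and the place of its promoter window hold for GRCh38.

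For each protein-coding gene, non-coding rows whose exons overlapped only its exons on the other strand by at least 50 bp were summed, and the gene was kept where the sum reached its own row. This gave 1815 genes from 2050 rows. The 6 genes described were kept whatever their own row held, and PFN1 was read from ENO3. After filterByExpr, which all 6 genes passed, 1548 genes were scaled with TMM and fitted with edgeR 4.0.16 in R 4.3.3 as 3 group means over 6 libraries, with 3 residual degrees of freedom. Calls are at an adjusted p of 0.05 or under. The procedure was tested on simulated data. Means and SD are over the 2 libraries of a group, and standard errors of fold changes come from the edgeR fit of all 6 libraries.

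The genes, the lists and the tests were chosen with earlier results of these data known. Genes named from each list were up to 2 rising and 2 falling ones with the smallest p in each comparison with DMSO, plus every tested actin isoform. 1 gene of the lists is counted but not reported here. The nearest profiles were the 2 genes per member with a mean of at least 50 CPM and the smallest distance, with 1 CPM added before logs. Alternatives were RLE and upper-quartile scaling, the members among all rows, no filter, 1 CPM in 2 libraries, DESeq2 1.42.0, a replicate block, only the 4 libraries compared, other row rules and leaving out each library. The scaling factors of all rows on the reading were added after seeing the data. Within-group pairs had a mean chi-square of 2.76 to 2.97 per gene, so no library repeated another. Marker lists of other cell types were read from own rows: hepatocyte rows held at most 37 counts and macrophage rows at most 20. The own row of the smooth muscle marker CNN1 held 0 to 29 counts and that of MYH11 366 to 1053. Counts in an own row can come from a gene on the other strand, so they do not show that MYH11 was expressed. KRT7 held 62 to 1243 counts in the reading.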

Additional observations from a re-analysis of the deposited data

How the results depend on the processing

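Of 354 log2 fold changes of the 6 genes under the alternatives, 315 kept their direction and their side of the threshold, 4 lost the call, 9 gained one and 26 changed sign, 10 of these with neither value called. The 10 were ABLIM3 for cynaroside against DMSO among all deposited rows (0.17) and with their scaling factors (0.174), ACTA2 for FEBJ against DMSO with protein-coding rows added (-0.026), PFN1 for FEBJ against DMSO without FEBJ 2 (0.018) and without DMSO 2 (0.020, in a range of -0.037 to 0.020 over the libraries left out), and ARHGDIA for FEBJ against cynaroside with upper-quartile scaling (-0.017), 1 CPM in 2 libraries (-0.015), an overlap of 1 bp (-0.002) or 200 bp (-0.049) and no condition on the own row (-0.040). With the scaling factors of all rows, ARHGDIA, LASP1 and PFN1 stood at 0.231, 0.076 and 0.314 for cynaroside against DMSO, ARHGDIA and PFN1 at 0.038 and 0.214 for FEBJ against DMSO and at -0.193 and -0.099 for FEBJ against cynaroside. Tested among all deposited rows, the values were 0.230, 0.074 and 0.313, then 0.038 and 0.214, then -0.192 and -0.099. With protein-coding rows added, ARHGDIA and PFN1 stood at -0.115 and -0.021 for FEBJ against cynaroside. That reading tested more genes and called 1826 for FEBJ against DMSO, 1199 for cynaroside against DMSO and 1823 for FEBJ against cynaroside, where 1088, 646 and 1078 were called without them, and 28 other actin genes after cynaroside in place of 18. PFN1 after FEBJ was called lower with upper-quartile scaling (-0.065), with protein-coding rows (-0.131) and with no condition on the own row (-0.090), whereas it rose in the scalings on all rows; the cause was not tested. Its difference between FEBJ and cynaroside was not called with no condition on the own row (0.053, adjusted p = 0.0563). An overlap of 200 bp left ABLIM3 and PFN1 with no value.

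Leaving out each library gave 956 to 1099 called genes for FEBJ against DMSO, 493 to 638 for cynaroside against DMSO and 986 to 1065 for FEBJ against cynaroside, and 3 to 4, 5 and 4 to 5 of the 6 genes. Of the own rows 4 to 6, 4 to 5 and 0 to 1 were called, the 1 without cynaroside 2. DESeq2 called 988, 497 and 979 genes. The replicate numbers did not pair the libraries: deviations of same-numbered libraries correlated at 0.061 for FEBJ and cynaroside and at -0.029 for the other pairs of groups. With the number as a block 1082, 627 and 1073 genes were called, and no call of the 6 genes changed in the opposite-strand reading, while 4 own rows were called after FEBJ in place of 5. With 2 libraries a group and ABLIM3 and ACTA2 at 84 to 1179 counts, changes of the size seen for ABLIM3 lie near what this depth can show.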
